A study of Mus musculus with 4 samples.

Results

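Stab1, Stab2, Lyve1, Mrc1, Oit3, Fcgr2b and Gpr182 were followed in endothelial cells of the mouse aorta-gonad-mesonephros region at embryonic day 10.5. These 7 genes were chosen by symbol, as a group of scavenger and endocytic receptors and surface proteins of sinusoidal endothelium, out of 31053 genes in the count tables. All 7 were found in the tables, and Fcgr2b was too rare to pass the low-count filter of the main tests. The study compared wild-type embryos (WT, 2 libraries) with age-matched embryos lacking the microRNA miR-223 on both alleles (labelled mir-223 -/-, KO, 2 libraries). Cells positive for the endothelial surface protein CD31 and negative for CD45 were sorted and profiled one by one with a droplet kit that tags the 3' end of each RNA. The sort removes most mature blood cells but keeps any CD31-positive cell that has not yet gained CD45. The labels give no embryo number, litter, strain or promoter-driven allele, so p-values measure only the spread between libraries, which may be technical.

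Sinusoidal endothelial cells line the wide, leaky capillaries of liver, spleen and bone marrow and clear waste molecules from the blood. Stab1 and Stab2 encode the stabilins, large receptors that take up oxidised lipoproteins, hyaluronan and other matrix fragments. Lyve1 encodes a hyaluronan receptor shared by lymphatic, sinusoidal and some embryonic venous endothelium and by tissue macrophages, and Mrc1 the mannose receptor of macrophages and sinusoidal endothelium. Fcgr2b encodes an Fc receptor that removes small immune complexes in liver sinusoids, Gpr182 an atypical chemokine receptor of sinusoidal and lymphatic endothelium, and Oit3 a secreted protein used as a marker of liver sinusoidal endothelium. miR-223 is a microRNA of myeloid cells, and a microRNA pairs with target RNAs mainly through its seed, bases 2 to 8 from the 5' end.

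The mature sequence of the deleted microRNA is shown because a member could carry its site. It is credited to RefSeq (build GRCm38.p6, chrX:96242884-96242905, plus strand), with the seed in capitals.
mmu-miR-223-3p: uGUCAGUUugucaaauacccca
The match to this seed is AACTGAC on the RNA strand. None of the 7 members held it in an annotated 3' UTR (GENCODE M21, build GRCm38; longest UTR per gene from 134 bases in Stab1 to 2608 in Gpr182). Over all measured genes with an annotated 3' UTR, 1834 of 20987 (8.74%) held at least 1 match. The absence of these letters says nothing of sites of other kinds.

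The promoters of 3 members are shown because Mrc1 lay mostly in cells with Stab2 or Oit3 in these data and Stab1 did not. RefSeq promoter windows (GRCm38.p6, 250 bases before to 50 after the gene start, printed 5′ to 3′ on the strand of the gene) were found for 4 of 7 members: Stab1, Stab2, Mrc1 and Fcgr2b. Capitals mark matches, on either strand, to the GATA motif AGATAA, the MAF half-site TGCTGA or the ETS core AGGAAG, none of which overlapped another.
Stab2 (chr10:87007893-87008192, minus strand): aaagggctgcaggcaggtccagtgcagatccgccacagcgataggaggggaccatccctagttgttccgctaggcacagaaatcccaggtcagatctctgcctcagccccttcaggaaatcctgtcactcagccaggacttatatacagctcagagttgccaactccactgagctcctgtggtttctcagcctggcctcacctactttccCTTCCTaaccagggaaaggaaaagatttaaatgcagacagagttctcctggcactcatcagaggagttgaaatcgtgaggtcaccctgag
Mrc1 (chr2:14229164-14229463, plus strand): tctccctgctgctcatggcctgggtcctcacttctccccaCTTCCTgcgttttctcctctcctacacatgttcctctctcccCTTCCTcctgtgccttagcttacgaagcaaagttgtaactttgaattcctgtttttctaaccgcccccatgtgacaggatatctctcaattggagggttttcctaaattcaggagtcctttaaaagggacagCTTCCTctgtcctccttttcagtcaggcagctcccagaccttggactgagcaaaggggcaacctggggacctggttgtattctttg
Stab1 (chr14:31168592-31168891, minus strand): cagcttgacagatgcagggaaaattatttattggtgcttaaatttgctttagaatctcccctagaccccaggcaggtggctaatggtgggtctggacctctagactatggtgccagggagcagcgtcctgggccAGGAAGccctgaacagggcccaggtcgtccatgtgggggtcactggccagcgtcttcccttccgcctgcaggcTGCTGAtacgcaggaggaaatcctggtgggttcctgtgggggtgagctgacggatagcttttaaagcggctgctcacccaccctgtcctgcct
Stab2 held 1 ETS match, Mrc1 held 3, and Stab1 held 1 ETS match and 1 MAF match. No GATA match lay in the 4 windows. Of 32851 promoter windows of this length, 35.4% held the ETS letters, 19.5% the MAF letters and 11.2% the GATA letters. These are matches of letters and not binding sites.

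The tables held 31521 barcodes and 19191 cells were kept, from 2296 to 6887 per library. WT library 1 was the smallest and deepest, with a median of 30200 UMIs per cell against 18174 to 20157 in the other 3 (a UMI counts 1 captured RNA molecule). Pairs of libraries shared 8 to 28 barcodes, at most 0.327% of the smaller library. Xist, the RNA of the inactive X chromosome, was seen in 41.0% to 49.7% of cells in 3 libraries and in 0.0727% of cells of KO library 1. F630028O10Rik, the transcript in the place of the miR-223 gene, stood at 2.56 and 4.93 CPM (UMIs scaled to a fixed total per set of cells) in KO and at 0.129 and 0.398 CPM in WT. A 3' tag of this transcript does not check the deletion. Summed erythroid markers in Cdh5-positive cells without Oit3 or Stab2 were 5720 and 385 CPM in WT libraries 1 and 2 and 3650 and 656 CPM in KO libraries 1 and 2.

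Endothelial cells were taken as cells with at least 1 UMI of Cdh5, the junction protein VE-cadherin. WT libraries gave 1945 and 6346 of them and KO libraries 3329 and 5348, a total of 16968. Of these, 3743 had at least 1 UMI of Oit3 or Stab2 and 13225 had neither. Cells with Oit3 or Stab2 were deeper in every library, with medians of 22109 to 34867 UMIs against 17532 to 28938.5. The choice of Oit3 and Stab2 sets their own levels in both sets of cells, so neither gene is tested between them. The summed level of 10 pan-endothelial markers was 3790 to 4340 CPM in cells with Oit3 or Stab2, against 3960 to 4260 CPM in the other Cdh5-positive cells. Both sets were chosen by Cdh5 after a CD31 sort, so near-equal sums are partly set by that choice. Of the 10, Tek, Kdr and Eng were higher and Pecam1 lower in cells with Oit3 or Stab2, and 6 did not pass.

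Mrc1, Lyve1 and Gpr182 were concentrated in cells with Oit3 or Stab2, whereas Stab1 was spread over the endothelium. The cells with Oit3 or Stab2 held 25.4% of all Cdh5 UMIs of Cdh5-positive cells, a measure of their share of endothelial RNA. They held 96.1% of Mrc1 UMIs, 86.8% of Lyve1 UMIs, 82.0% of Gpr182 UMIs and 31.6% of Stab1 UMIs. Within each library, all 4 testable members were higher in these cells in edgeR's quasi-likelihood test with Benjamini-Hochberg adjustment. This comparison also called 22.5% of the 13825 genes tested higher, so a call alone sets the members little apart.

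Mrc1 stood at 27.5 and 36.2 CPM in WT and 18.1 and 28.2 CPM in KO within cells with Oit3 or Stab2. In the other Cdh5-positive cells it stood at 0.601 and 0.545 CPM in WT and 0.192 and 0.389 CPM in KO. No library came near overlap between the cell sets, and the fitted log2 difference was 6.09 ± 0.09 (SE, 4 libraries, edgeR adjusted p = 2.6e-11). Lyve1 was 74.7 and 104 CPM in WT and 41.7 and 76.3 CPM in KO in the cells with Oit3 or Stab2. Outside them Lyve1 was 4.86 and 4.87 CPM in WT and 2.997 and 4.53 CPM in KO, a log2 difference of 4.17 ± 0.08 (SE, edgeR adjusted p = 4.48e-08). The lowest level inside the set, in KO library 1, was still well above every level outside it. Gpr182 was 87.0 and 81.6 CPM in WT and 66.4 and 76.8 CPM in KO inside the set, and 5.68 to 6.77 CPM outside it (log2 difference 3.69 ± 0.08, SE, edgeR adjusted p = 6.11e-08). Stab1 was 133 and 108 CPM in WT and 110 and 113 CPM in KO inside, and 103 and 87.3 CPM in WT and 90.0 and 92.0 CPM in KO outside. Its log2 difference of 0.38 ± 0.03 (SE, edgeR adjusted p = 1.53e-06) had the same sign in every library, and the ranges of the cell sets did not overlap, though they lay close. Of Fcgr2b WT libraries held 1 and 9 UMIs and KO libraries 1 and 3 over all Cdh5-positive cells, and 13 of these 14 lay in cells with Oit3 or Stab2. In 2 alternatives that kept such rare genes its log2 difference was 4.29 and 4.43. It passed edgeR's test with no filter on low counts (adjusted p = 0.0035), where 2958 of 22684 genes were called higher.

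Free RNA gives UMIs in droplets of cells that do not express a gene, so the same reading was made where the members should be absent. In Cdh5-negative cells gated by germ cell, mesenchymal or erythroid genes, thinned to 5000 UMIs per cell, Stab1 was seen in 2.31% of 216, 1.76% of 455 and 5.26% of 114 cells. The same thinning left Stab1 in 36.0% to 40.2% of Cdh5-positive cells. Stab2, Oit3, Lyve1, Mrc1 and Gpr182 were each seen in at most 0.877% of those Cdh5-negative cells, and Mrc1 in 0 of all 3 kinds. Those cells had library medians of 18104 to 54136 UMIs.

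**Figure D1:**
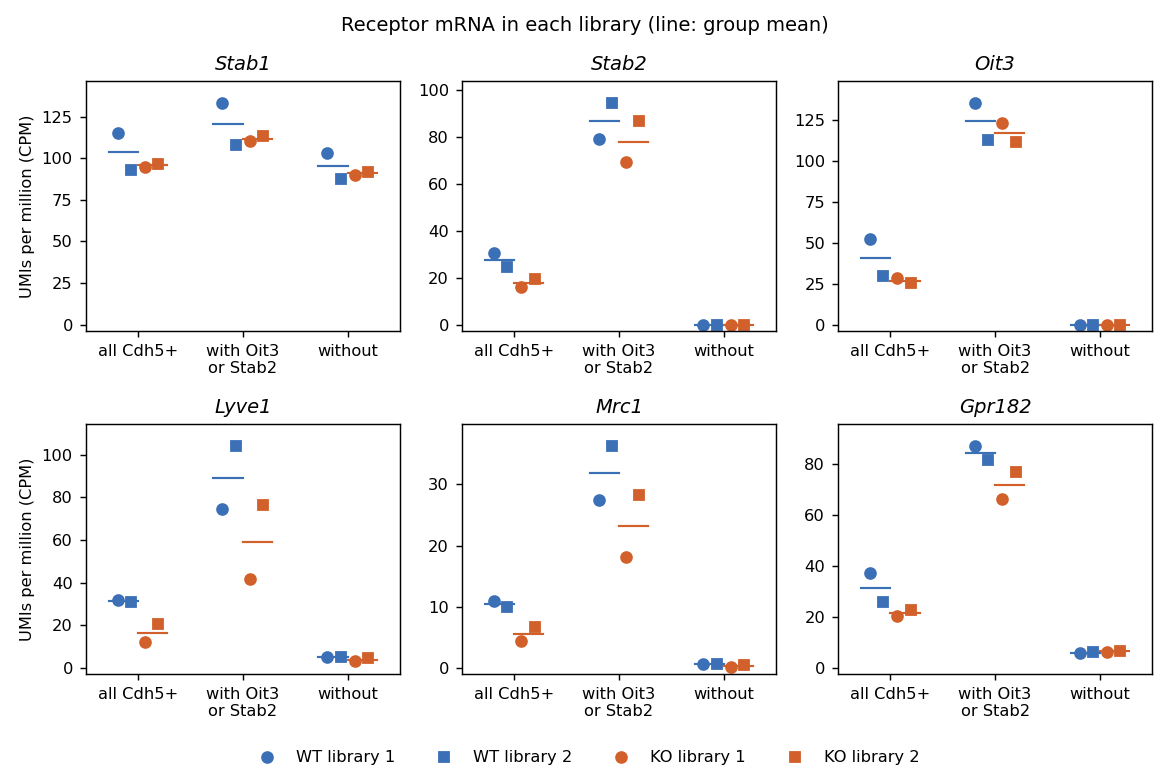
Level of each receptor in CPM (vertical axis) in all Cdh5-positive cells, in those with a UMI of Oit3 or Stab2 and in those without; each point is 1 library and each line a group mean. Stab1 lies between 87.3 and 133 CPM in every set, while Lyve1, Mrc1 and Gpr182 lie at a low level in cells without Oit3 or Stab2, where Oit3 and Stab2 are 0 by the choice of cells.

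Other genes were ranked by the same within-library ratio, taking each gene's lowest log2 ratio over the 4 libraries among 9913 genes with at least 50 UMIs in the Oit3 or Stab2 cells of each library. Mrc1 ranked 2, Lyve1 ranked 4, Gpr182 ranked 8 and Stab1 ranked 276. The noncoding RNA AC167229.1 (GRCm38, chr10:100129868-100144126, minus strand, overlapping no member) ranked 1, with a lowest log2 ratio of 5.82. It was at 11.5 to 22.5 CPM inside the set and at most 0.398 CPM outside. Next came Ehd3, an endocytic recycling protein, with a lowest log2 ratio of 4.08, Gata4, a transcription factor needed for liver sinusoidal identity, with 3.75, and Maf, a transcription factor of sinusoidal and other endothelium, with 3.60. Dpp4 (3.39), Akr1b8 (2.93), Fam124a (2.91), the growth factor Bmp2 (2.66), the fatty acid and scavenger receptor Cd36 (2.53) and Gatm (2.39) completed the 10 leading genes outside the members. Gata4 was 19.8 to 24.4 CPM inside the set and 0.732 to 1.58 CPM outside.

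Genes of related lists were compared between the same cell sets. Of 30 scavenger and endocytic receptors outside the members, 20 were tested and 7 were higher and 7 lower in cells with Oit3 or Stab2, with a median log2 difference of 0.03 against 0.01 over all genes. Higher were Colec12, a scavenger collectin (1.97), Cd36 (2.97), the endothelial lectin Clec14a (0.77) and Cxcl16, a membrane chemokine that binds oxidised lipoprotein (2.06). Lower were the lipoprotein receptors Lrp8 (-0.94) and Lrp1 (-1.31), the lysosomal receptor Scarb2 (-0.33) and the engulfment receptor Megf10 (-1.87). Of 34 genes of endocytosis and lysosomes, all tested, 17 were higher and 6 lower (median 0.10). Dab2, a clathrin adaptor also used as a venous marker, was 97.5 and 104 CPM in WT and 109 and 98.2 CPM in KO inside the set, and 35.1 to 42.8 CPM outside (log2 difference 1.48 ± 0.03, SE, edgeR adjusted p = 1.41e-10). The arrestin Arrb2 (1.09), the lysosomal membrane protein Lamp2 (0.48) and the clathrin adaptor subunit Ap2s1 (0.37) were also higher. The caveolar protein Cav1 (-0.69), Ehd4 (-0.37), Gulp1 (-0.30) and Npc1 (-0.24) were lower.

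Of 20 sinusoidal regulators and secreted factors, 17 were tested, 11 were higher and 4 lower, with a median log2 difference of 0.91. Maf (3.92), Bmp2 (2.80), the transcription factor Tfec (1.95) and the semaphorin receptor Plxnc1 (1.93) had the smallest adjusted p among those that were higher. Dll4, a Notch ligand of arterial and sprouting cells (-0.51), Igfbp7 (-1.24), Kit (-0.16) and Wnt2 (-0.96) were lower. All 16 arterial genes were lower (median -1.47), with Unc5b (-1.58), Hey1 (-1.85), Cxcr4 (-2.25) and Hey2 (-2.62) having the smallest adjusted p. Of 10 venous genes, 6 were higher and 1, Vwf, was lower (-0.81). The venous transcription factor Nr2f2 was 135 to 164 CPM inside the set and 73.6 to 86.3 CPM outside (log2 difference 0.91). Of 12 tested lymphatic genes, 5 were higher, Nr2f2, Flt4 (0.30), Ephb4 (0.24) and Nrp2 (0.50) among them. The lymphatic genes Prox1 (-0.52), Pdpn (-1.73), Tbx1 (-0.62) and Reln (-1.43) were lower. Prox1 sets lymphatic fate, so Lyve1 was high here where a lymphatic factor was lower. Of 26 tested Hox genes, which mark position along the body axis, 3 were higher and 13 lower: Hoxa3 (0.23), Hoxa4 (0.62) and Hoxa5 (0.62) were the 3 higher ones. Hoxd8 (-0.56), Hoxd9 (-0.91), Hoxb9 (-0.57) and Hoxc9 (-0.78) were lower. Of 20 proliferation genes, 17 were higher and 0 lower, by small amounts (median 0.20; Cdk1 0.26, Aurkb 0.33). The part of the greater depth of cells with Oit3 or Stab2 in these differences was not tested.

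Markers of other cells were read in the same sets, since Lyve1 and Mrc1 are also macrophage genes. The 5 defining macrophage markers Ptprc, Csf1r, Adgre1, Cx3cr1 and C1qa summed to 0.118 to 0.29 CPM in cells with Oit3 or Stab2 and 0.361 to 0.839 CPM in the other Cdh5-positive cells, with Adgre1 at 0 in both. The whole list of 15 macrophage markers summed to 4.24 to 11.5 CPM inside and 12.0 to 12.7 CPM outside. Of the 4 of these markers that could be tested, Lyz2 was lower inside (log2 difference -2.25), and C1qb, a complement subunit, was higher (3.20, edgeR adjusted p = 0.000103). C1qb was at 0.496 and 0.826 CPM in WT and 0.29 and 0.591 CPM in KO inside, from 5 to 28 UMIs per library, and at 0.0229 to 0.0944 CPM outside. C1qb passed the low-count filter through its level inside the set, so the filter favoured a call in this direction. The call is therefore given as description. The part of C1qb-positive cells in the Mrc1 and Lyve1 levels was not tested. The 12 hepatoblast markers summed to 12.2 to 18.6 CPM inside the set and 20.9 to 26.9 CPM outside. Mesenchymal, germ cell, neural and blood progenitor markers were also lower in sum inside the set in every library. Erythroid markers summed to 71.8 to 3390 CPM inside and 385 to 5720 CPM outside.

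Which endothelial cells carried the members was read from cells gated by 1 or 2 marker genes, each gate compared with the other Cdh5-positive cells of the same library. Cells with both venous genes Nr2f2 and Nrp2 numbered 8904, and held 72.9% to 80.9% of the cells with Oit3 or Stab2. All 6 testable members were higher in them. The comparison called 51.2% of all genes tested in either direction, and 3812 of 14347 higher. Oit3 was 61.5 and 36.9 CPM in WT and 35.5 and 33.1 CPM in KO in venous-gated cells, and 28.1 and 17.6 CPM in WT and 19.0 and 13.9 CPM in KO in the rest. The log2 differences were 1.16 for Oit3, 1.35 for Stab2, 1.35 for Lyve1, 1.25 for Mrc1, 1.12 for Gpr182 and 0.60 for Stab1 (edgeR adjusted p at most 4.05e-05). Venous-gated cells were deeper than the rest in every library, with medians of 22101 to 34488 UMIs against 14812 to 24321. CPM values are scaled for depth, but a gate that needs a UMI of each gene is passed more often by deep cells.

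Arterial-gated cells, with both connexin genes Gja4 and Gja5, numbered 2137 and all 6 testable members were lower in them. Of all genes 62% were called in either direction, and 4330 of 13897 were lower. Oit3 was 5.90 to 15.1 CPM in these cells against 27.0 to 55.0 CPM in the rest (log2 difference -2.02 ± 0.09, SE, edgeR adjusted p = 5.95e-09). Stab2 (-1.74), Mrc1 (-1.27), Gpr182 (-1.17) and Lyve1 (-1.12) were also lower, and Stab1 by a small amount (-0.14, adjusted p = 0.0103). The Stab1 call was lost under 2 of 6 alternatives. Cells with the neural capillary genes Foxq1 and Spock2 numbered 873 and were almost free of the restricted members. The comparison called 49.1% of all genes in either direction, and 3650 of 13732 lower. Oit3 was 0.897 to 4.65 CPM, Gpr182 0.555 to 4.65 CPM, Stab2 0 to 5.32 CPM, Lyve1 0 to 6.98 CPM and Mrc1 0 to 1.66 CPM. The log2 differences ran from -3.04 for Gpr182 to -3.83 for Oit3. Stab1 was 91.0 to 133 CPM there and slightly higher than in the rest (0.11, edgeR adjusted p = 0.0438), a call lost under 4 of 6 alternatives.

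Cells with Gata4 and Tbx20, an endocardial pair, numbered only 102, and 42.9% to 85.7% of them had Oit3 or Stab2 per library. Here 5 of 6 testable members were higher, beside 13.8% of all genes called in either direction and 673 of 13385 higher. Oit3 was 259 and 100 CPM in WT and 142 and 132 CPM in KO, against 24.4 to 50.8 CPM in the rest (log2 difference 2.13 ± 0.12, SE). Gpr182 was 98.8 to 172 CPM against 19.9 to 36.1 CPM (2.14), and Lyve1 (1.51), Stab2 (1.31) and Mrc1 (1.22) were also higher. Stab1 was 71.9 to 110 CPM and was not called (-0.20, edgeR adjusted p = 0.289). The pair includes Gata4, which is itself high in cells with Oit3 or Stab2, so the gate is not independent of them.

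Prox1-positive cells numbered 1119 and carried a different mix, beside 18.2% of all genes called. Stab1 was higher, at 156 and 122 CPM in WT and 127 and 133 CPM in KO against 90.3 to 109 CPM in the rest (log2 difference 0.46 ± 0.03, SE, edgeR adjusted p = 1.11e-06). Stab2 (-0.64, adjusted p = 0.0375) and Mrc1 (-1.15, adjusted p = 0.0486) were lower, and these calls were lost under 3 and 2 of 6 alternatives. Lyve1 was 38.5 and 33.0 CPM in WT and 20.1 and 34.6 CPM in KO, against 31.0 and 30.7 CPM in WT and 11.4 and 19.4 CPM in KO in the rest. That is above the rest in all 4 libraries, but the log2 difference of 0.45 did not pass (edgeR adjusted p = 0.0942). Oit3 (-0.94) and Gpr182 (-0.55) did not pass either. Sprouting cells, with Esm1 and Kcne3, numbered 1691, and Mrc1 was the member called higher in them (0.45, edgeR adjusted p = 0.000416). Of all genes 36.7% were called in either direction, and 2750 of 13616 were higher. Oit3 (0.39, edgeR adjusted p = 0.0598) and Lyve1 (-0.34, adjusted p = 0.0862) did not pass there, but did under 3 and 2 of 6 alternatives. Runx1-positive hemogenic cells numbered 770. Of all genes 25.1% were called there in either direction, and 1809 of 13834 were lower. In them 4 of 6 testable members were lower: Oit3 (-1.57), Stab2 (-1.15), Gpr182 (-1.06) and Stab1 (-0.56). Lyve1 and Mrc1 had values of -0.84 and -1.25 that did not pass. The calls of Stab1 in hemogenic cells, Mrc1 in endocardial cells and Lyve1 in neural capillary cells were lost under 2, 1 and 1 of 6 alternatives.

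**Figure D2:**
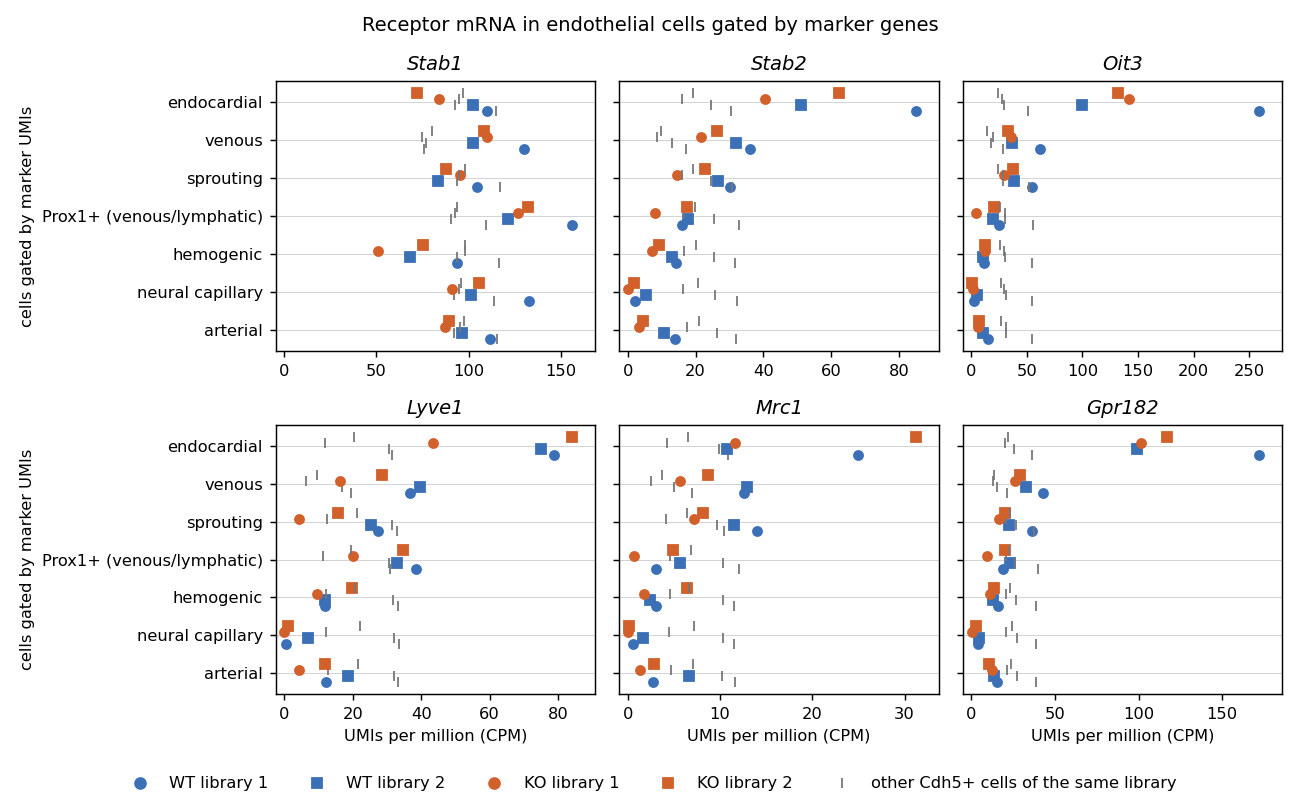
Receptor level in CPM (horizontal axis) in cells gated by marker genes (vertical axis); coloured points are the gated cells of each library and grey ticks the other Cdh5-positive cells of the same library. The endocardial and venous gates lie to the right of their ticks for Oit3, Stab2, Lyve1, Mrc1 and Gpr182, the arterial and neural capillary gates to the left, and Stab1 lies to the right in the Prox1 gate.

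Co-detection of the members in single cells was read after thinning every cell to 5000 UMIs, so that deep cells do not pair genes by depth alone; 20 to 125 shallower Cdh5-positive cells per library were left out. For a pair, the count of cells with both genes was divided by the count from the product of the genes' shares in that library. Over the 10 pairs among Oit3, Stab2, Lyve1, Mrc1 and Gpr182 WT libraries had median ratios of 6.49 and 7.58, and KO libraries 6.84 and 8.68. Mrc1 with Oit3 gave 8.43 to 14.9, the highest of the 10 pairs in every library but WT library 1, where Lyve1 with Mrc1 gave 9.51. Of the cells with an Mrc1 UMI, 77.6% to 87.5% also had Oit3, whereas 20.9% to 35.9% of cells with Oit3 also had Mrc1. Mrc1 cells were thus nearly nested in the Oit3 cells. Lyve1 with Mrc1 gave ratios of 9.51 to 12.3, Stab2 with Oit3 5.35 to 7.69, Oit3 with Gpr182 6.02 to 7.56, and Stab2 with Gpr182 4.78 to 5.32. Stab1 with Stab2, Lyve1, Oit3 or Gpr182 gave 1.05 to 1.57. With Mrc1 it gave 1.35 to 1.38 in 3 libraries and 0.858 in KO library 1, from 16 cells with both. The ratios describe cells of 1 library, which share their library's mix of cell types.

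Most endothelial cells had none of the 5 restricted members at this depth: 80.3% and 83.5% in WT and 85.3% and 85.6% in KO. All 5 together were seen in 34 of 1925 and 70 of 6221 cells in WT and in 8 of 3304 and 39 of 5251 cells in KO. At least 3 of the 5 were seen in 6.34% and 4.16% of WT cells and 2.69% and 3.26% of KO cells. The groups did not overlap, but no like reading was made for other sets of genes. Cells with all 5 had median raw depths of 19759 to 33426 UMIs, against 18434 to 30569 in cells with none. The share of cells with a Lyve1 UMI was higher in cells with many Oit3 and Stab2 UMIs than in cells with none, though not at every step: in KO library 1 it was 15.3% at 1 such UMI and 13.2% at 2. At 0 such UMIs WT libraries stood at 1.94% and 2.53% and KO libraries at 2.14% and 1.97%. With 5 or more the WT shares were 79.2% and 73.6%, against 40.0% in KO library 1 and 72.1% in KO library 2. Gpr182 went from 3.61% to 4.24% of cells to 65.7% to 90.6%, and Mrc1 from at most 0.605% to 42.9% to 54.7%. KO library 1 had the lowest Lyve1 and Mrc1 shares in each class with 2 or more such UMIs. For Stab1 the share went from 35.3% to 38.7% in cells with 0 such UMIs to 47.5% to 57.1% in cells with 5 or more.

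**Figure D3:**
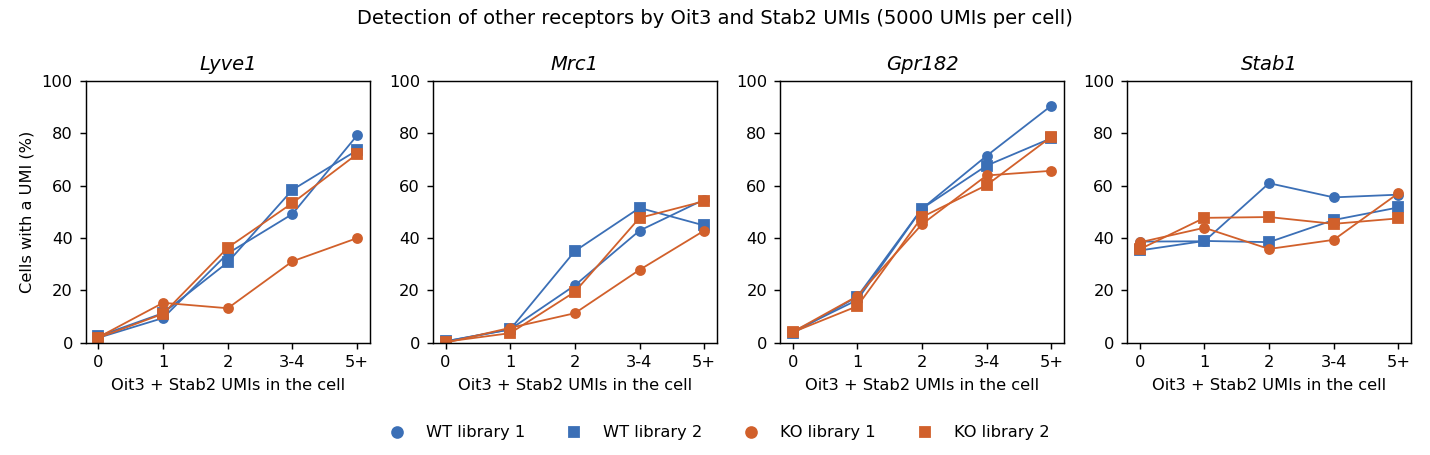
Share of Cdh5-positive cells with a UMI of Lyve1, Mrc1, Gpr182 or Stab1 (vertical axis, percent) by the number of Oit3 and Stab2 UMIs in the same cell (horizontal axis), each cell thinned to 5000 UMIs; each line is 1 library. Lyve1, Mrc1 and Gpr182 start near 0 and are higher at 5 or more UMIs in every library, with small dips on the way (Lyve1 in KO library 1 at 2 UMIs, Mrc1 in WT library 2 at 5 or more), Stab1 starts near 36%, and KO library 1 is lowest for Lyve1 and Mrc1 from 2 UMIs on.

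Between genotypes, 5 members had lower levels in both KO libraries than in both WT libraries when all Cdh5-positive cells were summed. Of all genes tested 11.2% lay below in the same way. Stab2 was 30.7 and 24.8 CPM in WT and 16.02 and 19.5 CPM in KO (means 27.8 ± 4.19 and 17.8 ± 2.48, SD, n = 2 each). Lyve1 was 31.9 and 30.8 CPM in WT and 11.9 and 20.7 CPM in KO (31.4 ± 0.719 and 16.3 ± 6.17). The lowest value of both genes was that of KO library 1, the library with almost no Xist, and the part of that difference in the result was not tested. Mrc1 was 10.99 and 9.90 CPM in WT and 4.33 and 6.65 CPM in KO, again lowest in KO library 1. Gpr182 was 37.1 and 25.9 CPM in WT and 20.2 and 22.5 CPM in KO, and Oit3 was 52.2 and 29.6 CPM in WT and 28.4 and 25.1 CPM in KO. For these 2 genes WT library 1 was far above the other 3 libraries, and the gap between WT library 2 and the higher KO library was small. Stab1 was 115 and 92.7 CPM in WT and 94.7 and 96.8 CPM in KO, with overlapping groups. Cdh5 itself was 507 and 490 CPM in WT and 435 and 485 CPM in KO, also without overlap.

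None of the 6 tested members passed over all genes: edgeR called 4 of 15585 genes (0.0257%), and every member had an adjusted p of 1. The log2 differences, KO against WT, were -0.92 ± 0.25 (SE) for Lyve1, -0.90 ± 0.22 for Mrc1, -0.62 ± 0.16 for Stab2, -0.59 ± 0.25 for Oit3, -0.54 ± 0.18 for Gpr182 and -0.10 ± 0.13 for Stab1. Of the 6, Mrc1, Stab2, Lyve1 and Gpr182 had an unadjusted p under 0.05 and a lower level, as did 0.853% of all genes. With no filter on low counts, which tested 22686 genes, edgeR's test called 121 genes, against 4 in the main test. Among the 121 were Lyve1 (edgeR adjusted p = 9.37e-06), Mrc1 (0.0015), Stab2 (0.028) and Oit3 (0.0428). The difference of Oit3 was -0.16 without WT library 1, that of Gpr182 -0.29 without it, and that of Lyve1 was -0.57 without KO library 1. The defining macrophage markers were near 0 in these cells. Leaving out cells with any of their UMIs left Lyve1 at -0.93 and Mrc1 at -0.90 on the log2 scale. Of the cells deep enough to be thinned, this kept 1910 of 1925 and 6187 of 6221 in WT. In KO it kept 3283 of 3304 and 5216 of 5251. So few cells were left out that the values could hardly change, and C1qb was not among the markers used. The part of macrophages in these differences was therefore not tested.

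Shares of cells were compared at 5000 UMIs per cell. Cells with Oit3 or Stab2 made up 14.2% and 11.03% of Cdh5-positive cells in WT and 9.26% and 8.93% in KO (12.6% ± 2.23 and 9.10% ± 0.233, SD, n = 2 each). Their exact 95% binomial (Clopper-Pearson) intervals ran from 12.7% to 15.8% and from 10.3% to 11.8% in WT, and from 8.29% to 10.3% and from 8.17% to 9.74% in KO. Both KO libraries lay below both WT libraries, and the exact two-sided permutation p was 0.333, the smallest that 2 libraries against 2 can give. Without thinning, WT shares reached 33.6% and 21.8% and KO shares 20.4% and 19.3%, with WT library 1, the deepest, standing apart. At equal depth Stab2 was seen in 9.35% and 7.47% of WT cells and 5.36% and 6.17% of KO cells. Lyve1 was seen in 6.75% and 5.72% against 3.87% and 4.57%, and Mrc1 in 4.21% and 3.15% against 1.45% and 2.27%. Oit3 was seen in 9.66% and 6.80% against 6.08% and 5.26%, and Gpr182 in 10.6% and 7.68% against 7.20% and 6.95%. At this depth the groups of these 5 members did not overlap, each with the smallest exact permutation p of 0.333 (0.466 adjusted over the 7 members). How many of all genes would lie apart in the same way by share of cells was not counted, so this does not set the members apart. Stab1 was seen in 40.2% and 36.0% of WT cells and 38.8% and 36.8% of KO cells (exact permutation p = 1). At this depth Fcgr2b was seen in 0 and 2 cells of WT and 0 and 1 cells of KO, where the counts of 0 allow, at that depth, up to 0.191% in WT library 1 and 0.112% in KO library 1 (exact limit). Without thinning each of those libraries held 1 cell with an Fcgr2b UMI. Gpr182 without thinning was seen in 27.2% and 17.55% of WT cells and 17.99% and 17.11% of KO cells. Its groups then overlapped (exact permutation p = 0.667). Lyve1 and Mrc1 were also read at 5000 UMIs within cells chosen by Oit3 or Stab2 before thinning, 651 and 1375 in WT and 675 and 1019 in KO. That choice depends on depth, so this is not a comparison at equal depth. Lyve1 was seen in 17.5% and 19.1% of these cells in WT and 13.6% and 17.2% in KO. Mrc1 was seen in 12.0% and 13.3% against 6.96% and 10.8%. Neither gene's groups overlapped (exact permutation p = 0.333 each), and the rate of this over all genes was not counted.

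**Figure D4:**
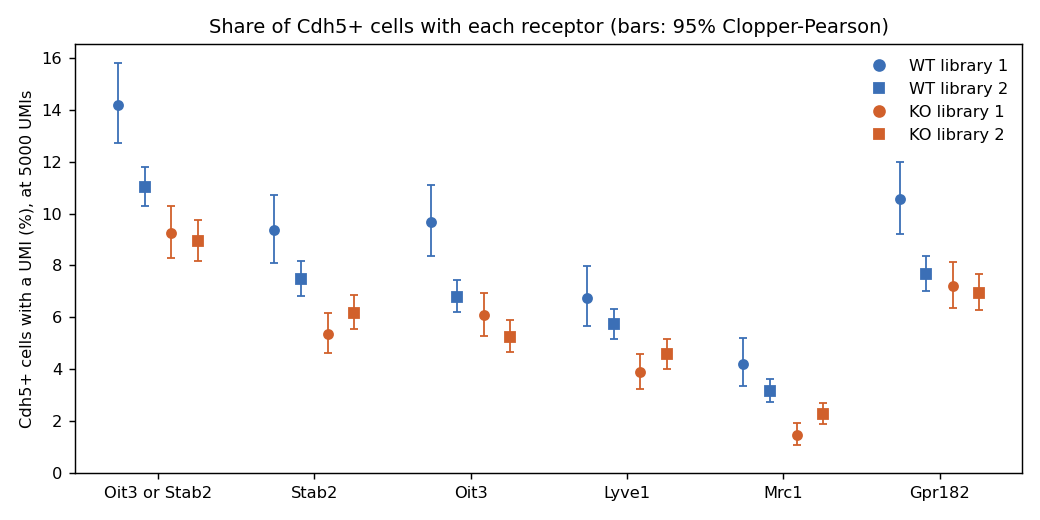
Share of Cdh5-positive cells with a UMI of Oit3 or Stab2, or of each restricted member (vertical axis, percent), each cell thinned to 5000 UMIs; each point is 1 library and bars are 95% Clopper-Pearson intervals, which cover counting error only. Both KO points lie below both WT points for every item, closest for Gpr182, where WT library 2 is at 7.68% and KO library 1 at 7.20%.

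Within cells with Oit3 or Stab2 the groups overlapped for all members but Gpr182, which was 87.0 and 81.6 CPM in WT and 66.4 and 76.8 CPM in KO. Both KO libraries were below both WT libraries for 13.1% of all genes tested there. Lyve1 was 74.7 and 104 CPM in WT and 41.7 and 76.3 CPM in KO, so KO library 2 lay between the WT libraries. For Mrc1, at 27.5 and 36.2 CPM in WT and 18.1 and 28.2 CPM in KO, the picture was the same. This set was read without thinning and held 33.6% of Cdh5-positive cells in WT library 1, the deepest, against 19.3% to 21.8% in the others. With the set read after thinning, the group level inside it was 187.2 CPM in WT and 113.6 CPM in KO for Lyve1. For Mrc1 it was 70.2 CPM in WT and 50.8 CPM in KO. Levels of single libraries are not given for that reading, and the part of depth in the overlap was not tested. In the set read without thinning, the log2 differences were -0.58 ± 0.28 (SE) for Lyve1 and -0.44 ± 0.24 for Mrc1. They were -0.22 ± 0.13 for Gpr182 and -0.09 ± 0.13 for Stab1. None of these 4 members passed edgeR's test (adjusted p = 1), in which 6 of 13047 genes (0.046%) were called. Single libraries moved these values by more than 1.5 times. Lyve1 was -0.82 without WT library 1, -0.30 without WT library 2, -0.21 without KO library 1 and -1.08 without KO library 2. For Mrc1 the same settings gave -0.64, -0.20, -0.16 and -0.80. Lyve1 passed edgeR's test in the first of them alone (adjusted p = 0.00582, where 71 genes were called). That fit has 1 WT library, which is assumed to vary like the KO libraries. As a description, Oit3 and Stab2 had log2 differences of -0.07 and -0.14 in the cells they define. In cells without Oit3 or Stab2, where 3 of 15252 genes (0.0197%) were called, Mrc1 had a log2 difference of -0.92 at levels under 1 CPM. There Lyve1 had -0.34, Gpr182 0.17 and Stab1 -0.03, and none passed. The KO against WT difference itself was compared between the cell sets: it differed by -0.36 ± 0.10 (SE) for Gpr182, -0.26 for Lyve1, 0.41 for Mrc1 and -0.04 for Stab1. None passed edgeR's test, which called 0 of 13825 genes (0%), against 282 at an unadjusted p under 0.05 and 1 gene by DESeq2.

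The difference between KO and WT over all Cdh5-positive cells was split into a part from the share of UMIs in cells with Oit3 or Stab2 and parts from the level inside and outside them. These cells held 32.4% of Cdh5-positive UMIs in WT and 22.8% in KO, as means of 2 libraries. Oit3 and Stab2 define these cells, so a lower level per cell can also take cells out of the set. Cells lost in this way would take their Gpr182, Lyve1, Mrc1 and Stab1 with them. The split therefore cannot part share from level for any member, and it is given as description. Stab2 differed by -9.98 CPM, of which -7.89 CPM (79.0%) was the share part and -2.09 CPM the level part inside the set. Oit3 differed by -14.2 CPM, with a share part of -11.7 CPM (82.8%). For Gpr182 the share part was -6.94 of -10.2 CPM (68.3%), and for Mrc1 -2.57 of -4.96 CPM (51.8%). Lyve1 differed by -15.0 CPM, of which -6.59 CPM (43.8%) was the share part and -7.65 CPM (50.9%) the level part inside the set. Stab1 differed by -8.07 CPM, spread over the share part (29.3%), the level inside (38.4%) and the level outside (32.3%). The SD of the share part over the 4 pairs of a WT and a KO library was 5.58 CPM for Stab2, 9.29 for Oit3, 5.35 for Gpr182, 1.75 for Mrc1 and 4.40 for Lyve1.

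All 6 share parts were smaller without WT library 1, the deepest. The part played by depth was not tested beyond the thinned reading given here. Without this library the share part was -2.95 CPM for Stab2 (42.1%), -3.94 for Oit3, -2.40 for Gpr182 (52.5%), -1.001 for Mrc1 (22.7%) and -2.64 for Lyve1 (18.1%). The level part of Lyve1 inside the set was then -11.1 CPM (76.1%). Without KO library 1 the balance moved the other way: the share part of Lyve1 was 71.5% and that of Mrc1 76.2%. When Oit3 or Stab2 was read at 5000 UMIs per cell, the share parts were 54.2% for Stab2, 68.9% for Oit3, 57.0% for Gpr182, 46.3% for Mrc1 and 36.8% for Lyve1. With at least 3 UMIs of Oit3 and Stab2 they were 78.8% for Stab2, 86.6% for Gpr182, 70.1% for Mrc1 and 54.8% for Lyve1, and the share part of Oit3 was -14.9 CPM, larger than its whole difference. Across these settings Gpr182 had more than 50% of its difference in the share part, and Lyve1 and Mrc1 lay on either side of 50%. A lower level of Oit3 or Stab2 per cell could also enter these share parts, so they do not part share from level. Oit3 lay above 50% and Stab2 on either side, but both genes choose the cells, which sets their split in part.

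**Figure D5:**
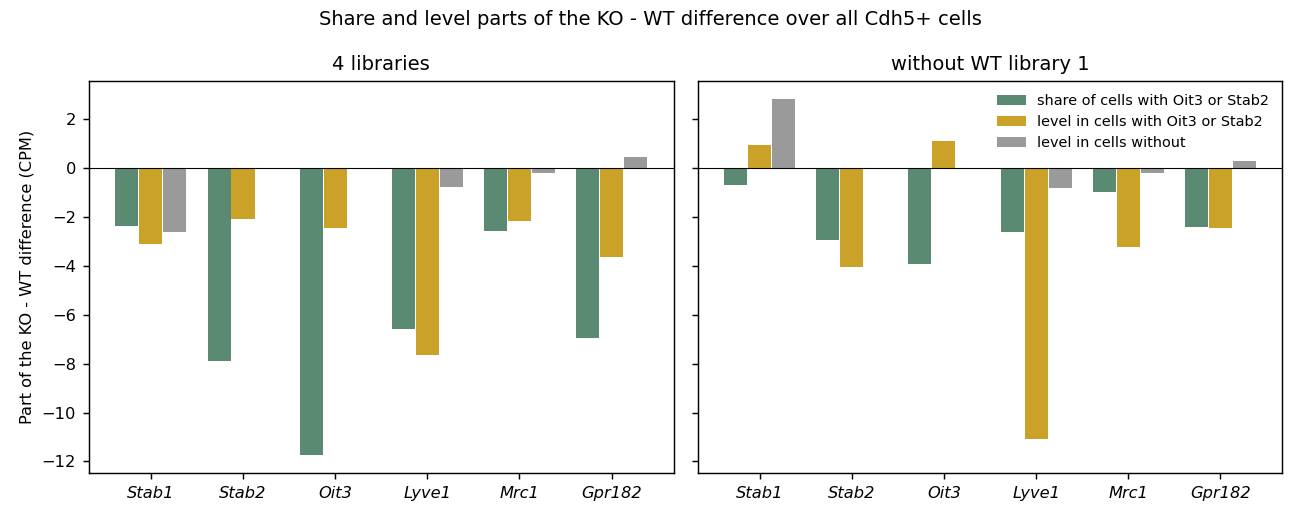
Parts of the KO minus WT difference over all Cdh5-positive cells (vertical axis, CPM) for each receptor, from the share of UMIs in cells with Oit3 or Stab2 (green), the level inside them (yellow) and the level outside them (grey); left with 4 libraries, right without WT library 1. The green bars of Stab2, Oit3 and Gpr182 shrink on the right, from -7.89 to -2.95 CPM for Stab2, while the yellow bar of Lyve1 grows to -11.1 CPM. Oit3 and Stab2 choose the cells, so the bars do not part share from level for any member.

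In the lists named above, no gene passed between KO and WT over all Cdh5-positive cells or within the cells with Oit3 or Stab2. Over all Cdh5-positive cells 13 of 19 tested sinusoidal regulators had a lower level in KO (median log2 difference -0.12, against 0 to 2 decimals over all genes), 4 of them at an unadjusted p under 0.05. Of the lymphatic genes 11 of 13 were lower in KO (median -0.18), of the venous genes 8 of 10 (median -0.05) and of the arterial genes 8 of 16 (median -0.01). Of the scavenger and endocytic receptors outside the members 15 of 25 were lower (median -0.08), and of the endocytic and lysosomal genes 17 of 34. Of the Hox genes 10 of 27 were lower (median 0.03), and of the proliferation genes 7 of 20 (median 0.02). Among markers of other cells, all 10 mesenchymal markers had a fitted value below 0 (median -0.56), as did 9 of 10 erythroid markers (median -0.36), and 10 of 12 hemogenic and blood progenitor markers had one above 0 (median 0.58). None passed the test, and the summed levels of the mesenchymal and of the erythroid markers overlapped between WT and KO libraries, inside the cells with Oit3 or Stab2 and outside them. The summed hemogenic and blood progenitor markers overlapped inside those cells, at 87.9 and 101 CPM in WT and 90.2 and 110 CPM in KO. Outside they did not overlap, at 143 and 169 CPM in WT and 184 and 172 CPM in KO. The part of markers of other cells in the members' differences was not tested.

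By position in GENCODE M21 (GRCm38), matched by identifier, Stab1 (ENSMUSG00000042286) spans chr14:31139013-31168641 and Stab2 (ENSMUSG00000035459) chr10:86841198-87008025, both on the minus strand. Lyve1 (ENSMUSG00000030787) spans chr7:110850607-110863239 and Oit3 (ENSMUSG00000009654) chr10:59422958-59441778 on the minus strand, Gpr182 (ENSMUSG00000058396) chr10:127747276-127751732 and Fcgr2b (ENSMUSG00000026656) chr1:170958617-170976547 on the minus strand. Mrc1 (ENSMUSG00000026712) spans chr2:14229392-14332057 on the plus strand and hosts Mir511. Genes on the opposite strand overlap Stab1 (Nt5dc2), Gpr182 (Zbtb39), Fcgr2b (Gm38204) and Stab2 (5 noncoding genes). No source used here says whether the counting used strand, so reads of those pairs may not be told apart.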

How the data were processed

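The authors deposited 1 table of UMI counts per library, not normalized, made with Cell Ranger 3.1.0 per the file headers; Seurat 4 is named, without its role, in the submitters' processing notes. No source used here gives the build or annotation. Cells with at least 1000 genes and at most 10% mitochondrial UMIs were kept, and expected doublets (0.8% per 1000 barcodes) were removed by simulated-neighbour score (Python 3.11.15, scikit-learn 1.9.0, scipy 1.17.1). UMIs were summed per library and cell set and tested with edgeR 4.0.16 (quasi-likelihood, robust, TMM, its own low-count filter; R 4.3.3), adjusted over all genes by Benjamini-Hochberg at 0.05; comparisons of cell sets kept the library as a term. DESeq2 1.42.0 was an alternative. Tests on simulated data, with 100 genes changed by 1 and 100 by 2 on the log2 scale, recovered 89 and 94 for KO against WT over all Cdh5-positive cells. They also called 14 unchanged genes. The simulation gave every gene the same fixed spread between libraries, so these rates need not hold for the data. Shares used cells thinned to 5000 UMIs and an exact permutation test, which cannot go below p = 0.333 here. Intervals cover counting error only. Members, gates and lists were chosen with earlier results of these data known. Named genes were all members, up to 4 genes per list and direction with the smallest p among those that passed, and the 10 leading genes by likeness. Sequences are from RefSeq GRCm38.p6.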

Additional observations from a re-analysis of the deposited data

How the results depend on the processing

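For KO against WT over all Cdh5-positive cells, the count of 4 became 35 with DESeq2, 121 with no filter on low counts and 9 with at least 3 Cdh5 UMIs per cell, and 4 to 13 without single libraries. Within cells with Oit3 or Stab2, the count of 6 became 15 with DESeq2, 67 with no filter, 3 when those cells were read after thinning, and 8 to 146 without single libraries. In cells without them, the count of 3 became 26 with DESeq2, 108 with no filter and 8 with at least 3 Cdh5 UMIs, and 5 to 24 without single libraries. For the difference between the cell sets, the count of 0 became 1 with DESeq2, 6 with no filter and 3 after thinning, and 0 to 5 without single libraries. The causes were not tested. With the replicate number as a block these counts were 47, 28 and 37. No member passed with the block: the smallest adjusted p was 0.128 (Mrc1) over all Cdh5-positive cells and 0.0509 (Lyve1) within cells with Oit3 or Stab2. Same-numbered libraries deviated together (correlation 0.41 over 15585 genes), and both libraries numbered 1 had the higher erythroid sums. With 2 pairs and no label that ties them, this is a hint from the data, and the fit without the block was kept.

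The share difference of -3.508 percentage points became -7.845 without thinning and ran from -5.085 to -1.931 without single libraries. The median co-detection ratio of 7.40 became 5.6 at 10000 UMIs. The number of members with over 50% in the share part was 2 to 5 without single libraries, against 4. These 4 include Oit3 and Stab2, the genes that choose the cells. Members below in both KO libraries by share of cells numbered 5 to 6 without single libraries, and Gpr182 was not among them without thinning. The rate of this over all genes was not counted. Genes called with against without Oit3 or Stab2 numbered 4219 to 5085; the gate counts ran from 7273 to 8433 (arterial), 5736 to 7289 (venous), 1352 to 2518 (Prox1), 3903 to 4664 (sprouting), 5131 to 6723 (neural capillary), 1118 to 1699 (endocardial) and 2073 to 3398 (hemogenic).

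Of 660 single-member alternatives, which include shares of cells and share parts, 11 log2 differences changed sign, all by small log2 values. Signs were not counted for the other measures. By share of cells, Stab1 differed by -0.3126 percentage points, and by 1.78 without WT library 1 and 0.7162 without KO library 2. Fcgr2b, seen in very few cells, also changed sign by share. Without single libraries Stab1 ran from -0.2175 to 0.03489 over all cells, from -0.2187 to 0.04557 within cells with Oit3 or Stab2 and from -0.1264 to 0.04721 outside them, each above 0 without WT library 1. Within those cells Oit3 ran from -0.1717 to 0.04898 and was 0.06514 with at least 3 UMIs, and Stab2 ran from -0.3119 to 0.01963. The difference for Lyve1 between the cell sets ran from -0.4503 to 0.01139. Gpr182 outside the set was -0.09029 after thinning, and Stab1 in sprouting cells was 0.002557 with doublets kept.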
